A study of Homo sapiens with 20 samples.

Results

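The ZFP36 family comprises ZFP36 (tristetraprolin), ZFP36L1 and ZFP36L2, whose 3 gene entries were taken by their Ensembl identifiers from the 19962 gene entries of the deposited count table. PAR-CLIP of IGF2BP3, an RNA-binding protein, was performed in HCT116 cells, a human colorectal carcinoma line. In PAR-CLIP the uridine analogue 4-thiouridine (4sU) is built into RNA, ultraviolet light crosslinks it to bound protein, and the crosslinked position is read as a T-to-C conversion. All cells, controls included, were the derivative named Tet-OsTIR1-PURO, which expresses the plant protein OsTIR1 conditionally, and all had received 100 µM 4sU for 15 h. The arsenite group was treated for 2 h with 250 µM of the compound (arsenite in the titles, sodium arsenate elsewhere in the labels), and its control group received PBS diluted 1:1000 for 2 h. Other cells received 5 µg/mL tunicamycin (TM), which blocks the N-glycosylation of proteins and thereby stresses the endoplasmic reticulum, for 1 h or for 4 h. The control for both was DMSO diluted 1:1000 for 4 h, so TM 1 h was compared with a vehicle of another duration. Each of the 5 conditions had 3 anti-IGF2BP3 libraries and 1 library made with control IgG.

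Proteins of the ZFP36 family carry a pair of CCCH zinc fingers that bind AU-rich elements, built around the word ATTTA, in the untranslated ends of short-lived mRNAs. They recruit the CCR4-NOT deadenylase and the decapping machinery, and the bound mRNA is degraded. ZFP36 itself is an immediate early gene, its own mRNA is AU-rich and unstable, and kinases of the p38 pathway and 14-3-3 proteins restrain the activity of the protein. The values below concern the mRNAs of the family as RNA recovered with IGF2BP3. Total RNA was not measured in these libraries, so a change in the amount of an mRNA and a change in its binding cannot be told apart.

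ZFP36 (ENSG00000128016) lies on the plus strand at chr19:39406847-39409407, ZFP36L1 (ENSG00000185650) on the minus strand at chr14:68787655-68796243, and ZFP36L2 (ENSG00000152518) on the minus strand at chr2:43222402-43226606, in the GRCh38.p14 annotation of RefSeq. No other RefSeq gene overlapped any of the 3 spans. RefSeq lists 1 transcript for ZFP36, 3 for ZFP36L1 and 1 for ZFP36L2. Exon and UTR borders were not used here, so positions within a gene are given as the distance from its start along the direction of transcription. The following 30-base stretches were read from the sequences of the deposited clusters, which are groups of overlapping reads with T-to-C conversions. The first of each pair holds the densest ATTTA words within clusters of that gene, since ATTTA is the core of the element that the family's proteins bind, and the second lies inside clusters of the most libraries. Capitals mark ATTTA in the first and CAT, a word known for IGF2BP proteins, in the second, and all are written 5′ to 3′ on the strand of the gene.
ZFP36, chr19:39409188-39409217, AU-rich stretch: cctttATTTAtgacgactttATTTAttcta
ZFP36, chr19:39408652-39408681, most often covered: gccccccggcgactcccCATcttcaatcgc
ZFP36L1, chr14:68788344-68788373, AU-rich stretch: ttATTTAacttatcaaaacgtATTTAttgc
ZFP36L1, chr14:68789269-68789298, most often covered: gattttatagcccacttacCATgCATaaca
ZFP36L2, chr2:43223451-43223480, AU-rich stretch: gaaaactATTTAacttATTTAttatcttgt
ZFP36L2, chr2:43223745-43223774, most often covered: aatccaatatattctgccaagaatatgcct

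The AU-rich stretch lay inside clusters of 2 of 15 anti-IGF2BP3 libraries for ZFP36, 10 of 15 for ZFP36L1 and 2 of 15 for ZFP36L2. The most often covered stretch lay inside clusters of 7 of 15 libraries for ZFP36 and of 15 of 15 for both ZFP36L1 and ZFP36L2. The ZFP36L2 stretch holds no CAT.

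The 15 anti-IGF2BP3 libraries held 130478 to 1568406 counts and the 5 IgG libraries 5981 to 17503. By their names, the libraries formed sets: PBS and arsenite in one, replicates 1 and 2 of the TM and DMSO groups in another, and their replicate 3 with the 3 IgG libraries of those groups in the third. Nothing in the labels says that replicates were separate cultures, so p-values measure only the spread between these libraries. Of 7 epithelial or intestinal markers, 6 had cluster reads over the 15 anti-IGF2BP3 libraries, and VIL1 had 0. KRT8 had 424 reads, EPCAM 301, KRT19 184 and CDH1 111. KRT18 had only 40, in 4 libraries, and CDX2 16, in 2 libraries. The markers of other cell types that could be examined (PTPRC, CD14 and ALB) had 0.

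With arsenite the recovery of ZFP36 rose by more than 10 times and that of ZFP36L1 by less than 2 times, while ZFP36L2 did not pass the test. ZFP36 was recovered at 868, 966 and 926 counts per 1000000 (CPM) in the 3 arsenite libraries and at 60.9, 55.6 and 63.7 CPM in the 3 PBS libraries. The groups lay far apart, with 920.1 ± 49.4 CPM (SD, n = 3) against 60.1 ± 4.10 CPM (SD, n = 3). ZFP36 rose 15.0-fold, or 3.91 on the log2 scale (SE 0.14), and edgeR's quasi-likelihood test gave an adjusted p of 1.4e-59. It had the 8th highest log2 fold change among 6642 genes tested.

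ZFP36L1, which acts on overlapping AU-rich mRNAs, was recovered at 1513, 1644 and 1332 CPM with arsenite and at 1146, 1017 and 1073 CPM with PBS. Every arsenite library was above every PBS library, although the gap was small beside that of ZFP36. The means were 1496 ± 157 and 1078 ± 64.5 CPM (SD, n = 3 each), a rise of 1.36-fold or 0.44 on the log2 scale (SE 0.07), for which edgeR gave an adjusted p of 1.2e-07.

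ZFP36L2 was recovered at 378, 397 and 369 CPM with arsenite and at 366, 373 and 362 CPM with PBS, and the groups overlapped. Its log2 fold change of 0.06 (SE 0.11) did not pass the test, with an edgeR adjusted p of 0.72, and the 95% interval of the change ran from -0.15 to 0.27. Of the 3 members, 2 were called higher and 0 lower with arsenite, where 17.6% of all genes tested were called higher and 17.1% lower. In CPM the groups did not overlap for the same 2 members, against 21% of 7558 genes that lay higher without overlap. Calls were thus common in this comparison, and only 7 genes had a larger rise than ZFP36.

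**Figure D1:**
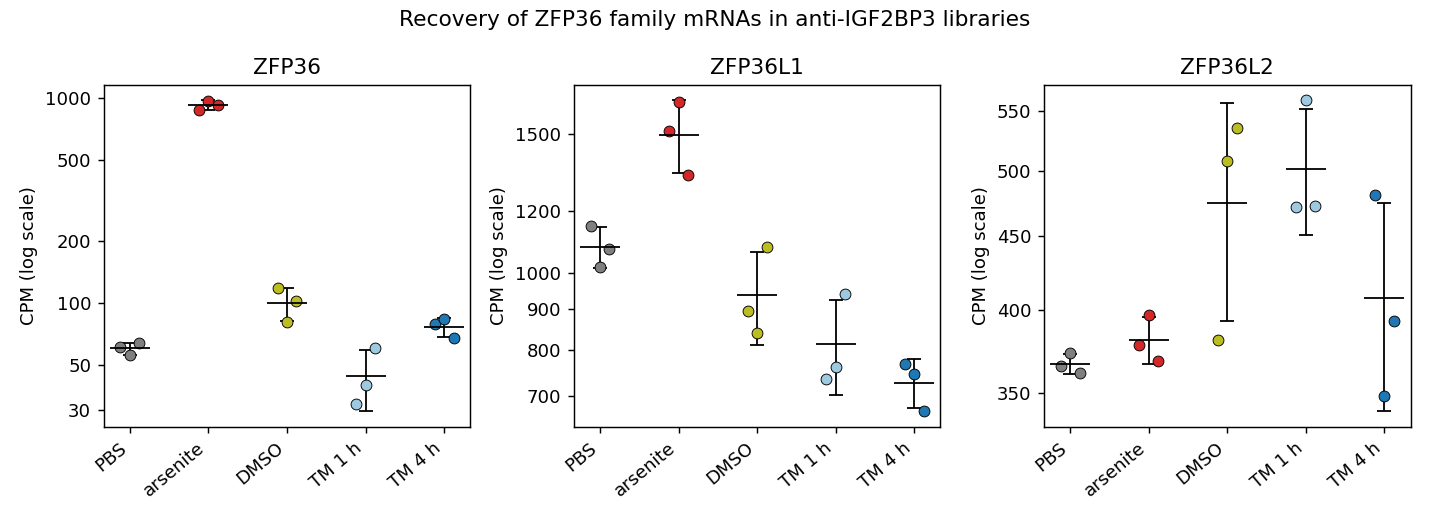
Counts per 1000000 (log scale, a separate range for each gene) of ZFP36, ZFP36L1 and ZFP36L2 in the 15 anti-IGF2BP3 libraries by condition; points are libraries, and the horizontal and vertical bars are the mean and SD of 3 libraries. ZFP36 lies between 868 and 966 CPM in the arsenite libraries and between 32.4 and 118 CPM in all others. ZFP36L1 is highest with arsenite, and for ZFP36L2 the arsenite and PBS groups overlap. For ZFP36L2, PBS lies below DMSO and TM 1 h without overlap, and arsenite lies below TM 1 h without overlap.

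With tunicamycin no member was called higher than with DMSO, and ZFP36 was lower at 1 h. At 1 h ZFP36 was recovered at 32.4, 39.97 and 60.4 CPM, against 118, 81.1 and 102 CPM in the 3 DMSO libraries. All TM 1 h libraries lay below all DMSO libraries, the highest of them being replicate 3, the one made in a different library set. The means were 44.3 ± 14.5 and 100.4 ± 18.5 CPM (SD, n = 3 each), and ZFP36 fell by 0.94 on the log2 scale (SE 0.20) with an edgeR adjusted p of 0.0057. Only 46 of 8343 genes were called at 1 h, 0.144% higher and 0.408% lower, and CPM lay lower without overlap for 7.78% of genes. The call rested on few counts (7, 18 and 63 reads in the TM 1 h libraries against 43, 76 and 127 with DMSO). It was lost without TM 1 h replicate 2, where the log2 change was -0.82 and the adjusted p 0.11, without DMSO replicate 3, where they were -0.87 and 0.078, and with DESeq2 in place of edgeR, with an adjusted p of 0.17.

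Neither ZFP36L1 nor ZFP36L2 passed the test at TM 1 h. ZFP36L1 stood at 736, 762 and 940.0 CPM with TM 1 h and at 894, 840 and 1079 CPM with DMSO, and its log2 change was -0.18 (SE 0.09, edgeR adjusted p = 0.50). ZFP36L2 stood at 472, 560 and 473 CPM with TM 1 h and at 381, 508 and 535 CPM with DMSO, and its log2 change was 0.03 (SE 0.10, edgeR adjusted p = 0.97). Both genes had overlapping groups, and the 95% intervals of their log2 changes were -0.36 to -0.01 and -0.17 to 0.23.

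At TM 4 h it was ZFP36L1 that fell. It was recovered at 766, 746 and 669 CPM, each below the lowest DMSO library, with a mean of 727 ± 51.2 CPM against 938 ± 126 CPM (SD, n = 3 each). The log2 change was -0.39 (SE 0.09), with an edgeR adjusted p of 0.0013, in a comparison where 2.31% of genes were called lower and 2.79% higher and where 10.5% of genes lay lower without overlap. The call depended on DMSO replicate 3, the highest DMSO library for this gene: without it the log2 change was -0.26 with an adjusted p of 0.11. With replicates 1 and 2 alone, which come from one library set, it was -0.19 with an adjusted p of 0.44.

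ZFP36 at TM 4 h stood at 78.7, 83.2 and 67.6 CPM and overlapped its vehicle. Its log2 change of -0.39 (SE 0.17, 95% interval -0.71 to -0.06) was of the size seen for ZFP36L1 but did not pass the test (edgeR adjusted p = 0.19). ZFP36L2 stood at 481, 349 and 393 CPM, and its log2 change of -0.30 (SE 0.10) had an edgeR adjusted p of 0.058. This value lay near the threshold, and the test passed in 4 of 19 alternatives, among them limma-voom with an adjusted p of 0.024.

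The TM time points were also compared with each other. ZFP36L2 was lower at 4 h than at 1 h by 0.33 on the log2 scale (SE 0.10, edgeR adjusted p = 0.025), although the groups overlapped. For ZFP36 every 4 h library was above every 1 h library, with a log2 difference of 0.55 (SE 0.21) that did not pass the test (edgeR adjusted p = 0.069). ZFP36L1 differed by -0.21 (SE 0.09, edgeR adjusted p = 0.13). In this comparison 5.6% of genes were called higher and 5.99% lower at 4 h, and 14.5% of genes lay higher without overlap. The ZFP36L2 call was lost with DESeq2 (adjusted p 0.11), with replicates 1 and 2 alone (0.054), and without TM 1 h replicate 2 (0.20), TM 4 h replicate 2 (0.15) or TM 4 h replicate 3 (0.10). The 3 contrasts of the TM groups share libraries and are not independent of each other.

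The response to arsenite, taken against PBS, was compared with that to TM, taken against DMSO, in 1 fit of all 15 libraries. For ZFP36 the arsenite change exceeded the TM 4 h change by 4.29 on the log2 scale (SE 0.23, edgeR adjusted p = 2.3e-29) and the TM 1 h change by 4.83 (SE 0.25, edgeR adjusted p = 2.1e-30). For ZFP36L1 the differences were 0.84 (SE 0.12, edgeR adjusted p = 5.0e-08) and 0.63 (SE 0.12, edgeR adjusted p = 5.2e-05). The 2 members therefore differed between the stresses, while ZFP36L2, at 0.35 (SE 0.15, edgeR adjusted p = 0.085) against TM 4 h and 0.03 (SE 0.15, edgeR adjusted p = 0.92) against TM 1 h, did not pass the test. Of all 7558 genes, 8.67% were called higher and 9.94% lower against TM 4 h, and 10.1% and 10.5% against TM 1 h. The stresses were run in separate library sets with separate vehicles, so stress and set can be compared only through the vehicles.

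**Figure D2:**
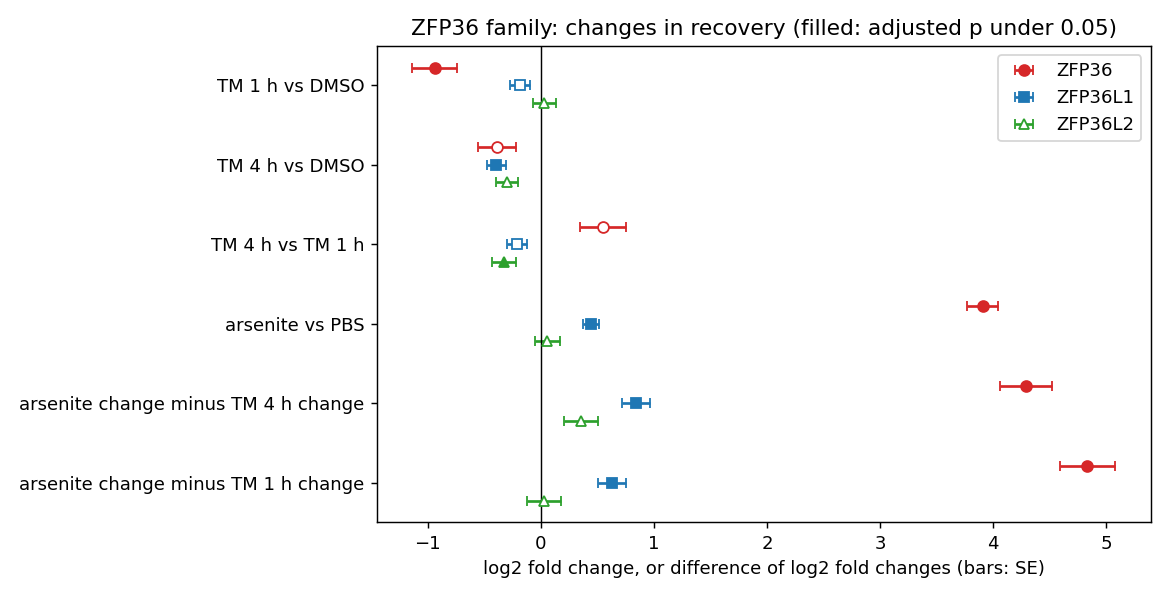
Log2 fold changes of ZFP36, ZFP36L1 and ZFP36L2 in 4 comparisons and the differences of log2 fold changes between arsenite and TM, from edgeR; bars are standard errors and filled symbols have an adjusted p under 0.05. ZFP36 lies at 3.91, 4.29 and 4.83 in the 3 rows that involve arsenite, and every other value of the family lies between -0.94 and 0.84.

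Within a gene the conditions can be ordered by their mean CPM. For ZFP36 the order was arsenite, DMSO, TM 4 h, PBS and TM 1 h, and the DMSO and TM 4 h libraries overlapped, as did those of PBS and TM 1 h. For ZFP36L1 it was arsenite, PBS, DMSO, TM 1 h and TM 4 h, with overlap between all neighbours below arsenite. For ZFP36L2 it was TM 1 h at 501 ± 50.3 CPM, DMSO at 475 ± 82.1, TM 4 h at 408 ± 67.4, arsenite at 381 ± 14.3 and PBS at 367 ± 5.97 (SD, n = 3 each), with overlap between all neighbours. DMSO lay above PBS without overlap for ZFP36 and for ZFP36L2, the latter at 381 to 535 against 362 to 373 CPM. PBS and DMSO libraries belong to different sets, so such a vehicle difference cannot be told apart from the set. Levels were not compared between the genes, because transcript lengths were not used here.

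In the IgG libraries, which measure background, counts of the family were few: 0 to 8 for ZFP36, 2 to 16 for ZFP36L1 and 0 to 6 for ZFP36L2. ZFP36 took 8 of 9366 counts in the arsenite IgG library, or 8.54 per 10000 (exact 95% binomial interval 3.69 to 16.8), and the 3 arsenite anti-IGF2BP3 libraries had 8.26, 8.94 and 9.25 per 10000. The PBS IgG library had 0 of 17503, for which the exact interval reaches 2.11 per 10000 (1.71 as 3 counts of the total), beside 0.536 to 0.620 in the PBS anti-IGF2BP3 libraries. The share of ZFP36 was thus high with arsenite in the IgG library as well, within an interval that covers counting error only.

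At TM 4 h the IgG library gave ZFP36 6 of 11542 counts, or 5.20 per 10000 (interval 1.91 to 11.3), above the 0.669 to 0.810 of the anti-IGF2BP3 libraries. For ZFP36L1 the IgG share was 9.14 per 10000 with PBS (interval 5.23 to 14.8) and 2.14 with arsenite (interval 0.259 to 7.71), where the anti-IGF2BP3 libraries had 9.81 to 11.1 and 12.9 to 15.8. The arsenite IgG interval of ZFP36L1 therefore lay below all arsenite anti-IGF2BP3 libraries, which was not so for ZFP36. That interval rests on 2 of 9366 counts, and the other conditions did not show the same. At TM 4 h the ZFP36L1 IgG share was 9.53 per 10000 (interval 4.76 to 17.0), above the 6.62 to 7.46 of the anti-IGF2BP3 libraries. With PBS, DMSO, TM 1 h and TM 4 h the ZFP36L1 IgG interval covered the anti-IGF2BP3 libraries. ZFP36L2 had 0 of 11542 in the TM 4 h IgG library, for which the exact interval reaches 3.2 per 10000 (2.60 as 3 counts of the total), beside 3.40 in the lowest TM 4 h anti-IGF2BP3 library. Its other IgG shares lay between 2.14 and 6.69.

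Over all 20 libraries, with condition as a covariate and scaling by library totals, none of the 3 members was called different between anti-IGF2BP3 and IgG. The log2 differences were -0.47 (SE 0.42, edgeR adjusted p = 0.71) for ZFP36, 0.55 (SE 0.23, edgeR adjusted p = 0.32) for ZFP36L1 and 0.26 (SE 0.35, edgeR adjusted p = 0.86) for ZFP36L2. Of 7592 genes, 0.105% were called higher and 1.71% lower with anti-IGF2BP3. Among the members, 1 had an unadjusted p under 0.05 (ZFP36L1, 0.019), and DESeq2 called none. The direction for ZFP36 was not stable: it turned to 0.29 with TMM factors and to 0.16 without the TM 4 h IgG library, and was -1.30 without the arsenite IgG library, with adjusted p-values of 0.52 to 0.97 over 8 alternatives. That of ZFP36L2 turned to -0.10 without the TM 4 h IgG library. With TMM factors ZFP36L1 was called higher, at 1.19 with an edgeR adjusted p of 1.6e-05. That scaling called far more genes than library totals did, as given in the last section. Library totals were the planned scaling here, because the IgG libraries are far shallower than the others. In simulated data the test recovered 3.5% of 200 genes changed 2-fold in this comparison, so most changes of that size were missed there. The simulation gave all genes 1 shared spread and included genes with fewer counts than the members, so its share need not hold for the members.

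**Figure D3:**
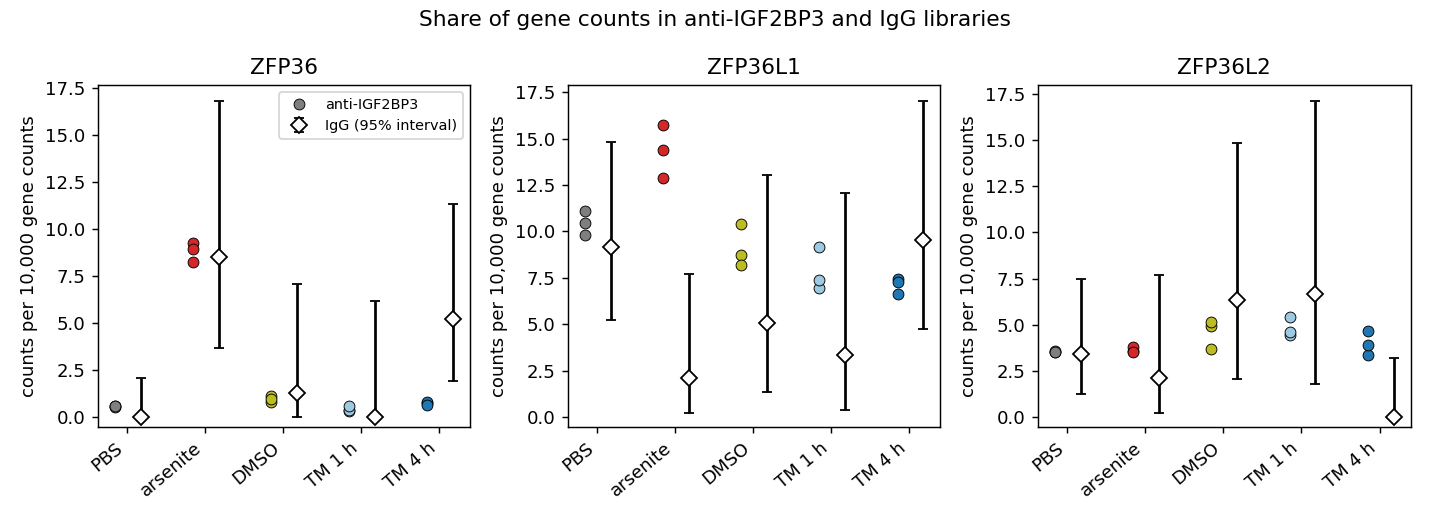
Counts per 10000 gene counts of ZFP36, ZFP36L1 and ZFP36L2 in anti-IGF2BP3 libraries (filled points, 3 per condition) and in the IgG library of each condition (open diamonds, with the exact 95% binomial interval). For ZFP36 the arsenite IgG library, at 8.54, lies among the arsenite anti-IGF2BP3 libraries at 8.26 to 9.25, and for ZFP36L1 it lies below them. At TM 4 h the ZFP36L1 IgG library, at 9.53, lies above its anti-IGF2BP3 libraries at 6.62 to 7.46, which its interval covers.

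The deposited clusters place the crosslinked reads within each mRNA. In the IgG libraries no member had a cluster in any of the 5 lists, which held 354 to 2762 cluster reads each. ZFP36 had 60 clusters, 31 of them in the 3 arsenite libraries, and none in PBS replicates 2 and 3, DMSO replicate 1 or TM 1 h replicates 1 and 2. ZFP36L1 had 182 clusters and ZFP36L2 88, both with at least 3 in each of the 15 libraries.

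Reads in ZFP36 clusters numbered 338, 543 and 936 in the arsenite libraries and 5, 0 and 0 in the PBS libraries. The arsenite clusters covered 1268, 1306 and 1569 bases at 0.267, 0.416 and 0.597 reads per covered base, and the single PBS cluster covered 59 bases at 0.0847. As reads per 1000000 (RPM) of cluster reads this was 1360 ± 213 with arsenite and 6.82 ± 11.8 with PBS (SD, n = 3 each). On the log2(value + 1) scale the difference was 8.92, with every arsenite library above every PBS library. An exact permutation test (two-sided) gave p = 0.1, which is the lowest value possible with 3 libraries against 3, or 0.54 after adjustment over the 9 comparisons of this kind.

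ZFP36L1 reached 2130 ± 470 RPM of cluster reads with arsenite and 1671 ± 137 with PBS (SD, n = 3 each), and replicate 3 of arsenite, at 1588, lay among the PBS libraries at 1522 to 1792. The arsenite clusters of ZFP36L1 covered 1305 to 1929 bases at 0.406 to 0.682 reads per base, and those in PBS 262 to 1413 bases at 0.248 to 0.310. Both measures depend on depth, and the libraries held 218140 to 828783 cluster reads with arsenite and 42699 to 244475 with PBS. Arsenite replicate 1, with 218140 reads, covered 1305 bases of ZFP36L1, and PBS replicate 1, with 244475, covered 1413. Covered bases are therefore no measure of wider binding. ZFP36L2 reached 434 ± 67.3 with arsenite and 562 ± 123 with PBS, and the direction of this difference depended on the scaling. Per 1000000 gene counts its cluster reads were 246, 297 and 269 with arsenite and 293, 230 and 270 with PBS, and the log2 difference was 0.037 in place of -0.36. Those clusters covered 291 to 666 bases with arsenite and 150 to 440 with PBS. The exact permutation p of these differences was 0.3 for ZFP36L1 and 0.2 for ZFP36L2, and 0.54 after adjustment. The 6 comparisons with TM had exact permutation p-values of 0.2 to 1 and adjusted values of 0.54 to 1.

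**Figure D4:**
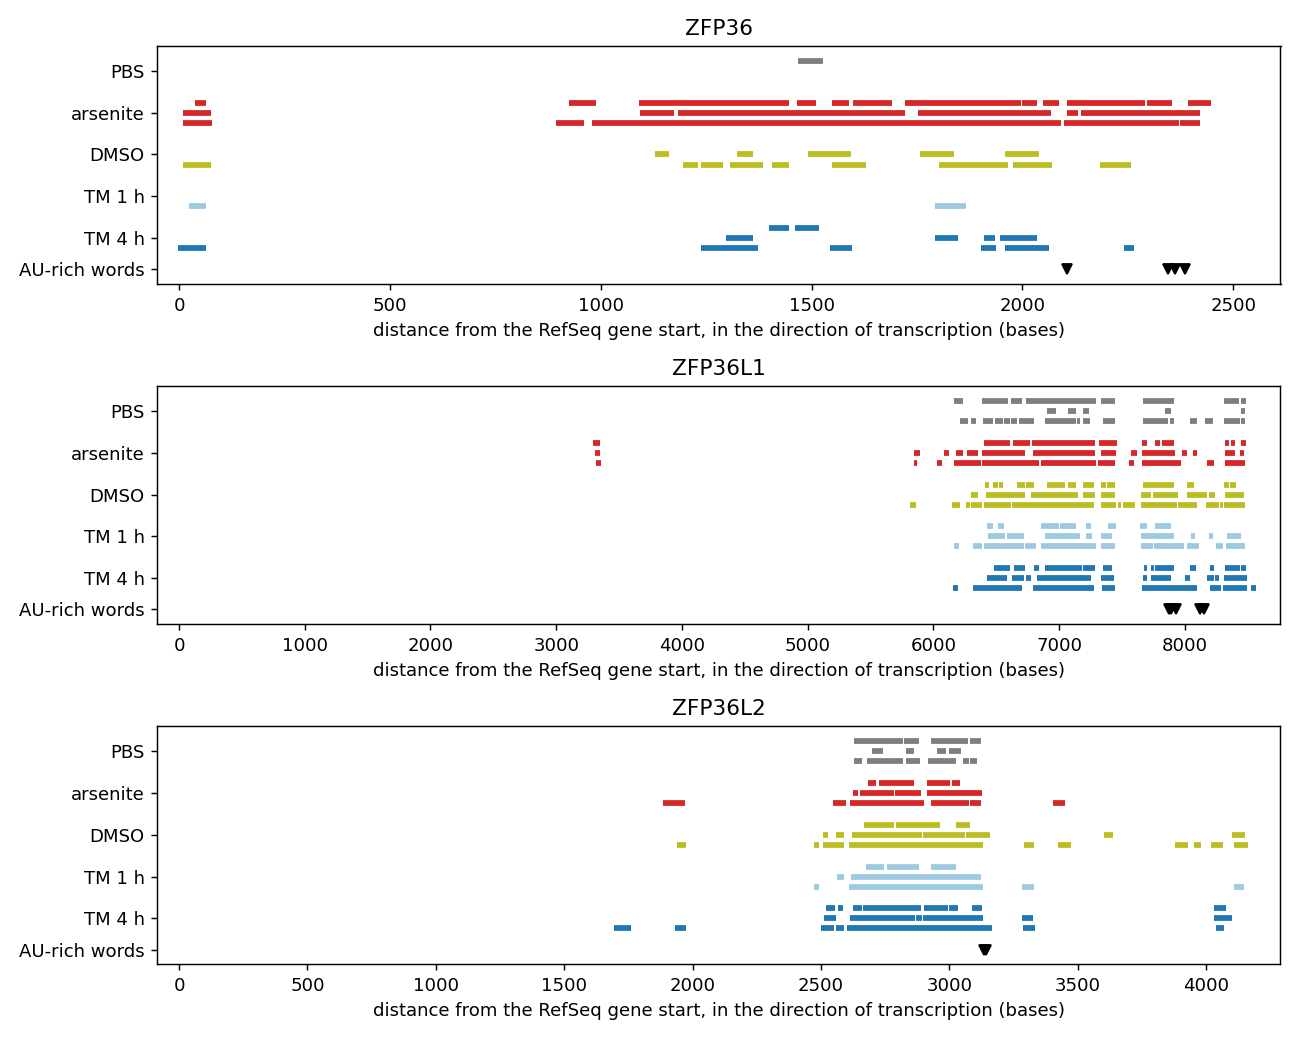
Clusters of the 15 anti-IGF2BP3 libraries along ZFP36, ZFP36L1 and ZFP36L2, each row being 1 library (replicates 1 to 3 from top to bottom in a condition) and each bar 1 cluster, against the distance from the RefSeq gene start in bases; triangles mark ATTTA words within covered bases. ZFP36 is covered from 893 to 2446 bases mainly in the arsenite libraries, while the main regions of ZFP36L1 and ZFP36L2 are covered in all conditions.

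Merged over the 15 libraries, the clusters of ZFP36 formed 3 regions with 1626 bases, 63.4% of its span. One, of 80 bases, lay at the gene start, from 2 bases before it to 77 after. The largest, from 893 to 2090 bases after the start (chr19:39407740-39408937), held 81.8% of the ZFP36 cluster reads, and the most often covered CAT stretch printed above lies in it. The last, from 2099 to 2446 bases (chr19:39408946-39409293), held 14.2% and contains all 4 ATTTA words found in ZFP36 clusters, 2105 to 2386 bases from the start. In the arsenite libraries this last region took 12.9% to 19.2% of the ZFP36 reads. Outside arsenite it had reads in 2 libraries, DMSO replicate 3 with 8.25% and TM 4 h replicate 3 with 9.43%.

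ZFP36L1 clusters formed 11 regions with 2540 bases, 29.6% of its longer span, nearly all of them toward the end of the gene. The region from 6150 to 7292 bases (chr14:68788951-68790093) held 63.9% of its reads, and its share ranged from 58.0% to 78.5% over the 15 libraries. The region from 7646 to 8302 bases (chr14:68787941-68788597) held 20.2% and contains the 5 ATTTA words in ZFP36L1 clusters. A region of 64 bases, from 3296 to 3359 bases, had clusters in 3 of 3 arsenite libraries, with 8, 5 and 6 reads, and in none of the other 12. RefSeq places another start of ZFP36L1 2827 bases into the gene, upstream of that region. These are 19 reads of the 2766 in ZFP36L1 clusters with arsenite, and the absence elsewhere was not tested against depth.

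ZFP36L2 clusters formed 12 regions with 1219 bases, 28.99% of its span. A single region of 561 bases, from 2603 to 3163 bases (chr2:43223443-43224003), held 93.2% of the reads. Both ATTTA words in ZFP36L2 clusters, 3133 and 3142 bases from the start, sit at its downstream edge, where 2 libraries, DMSO replicate 2 and TM 4 h replicate 3, had clusters. In each of the 3 genes 1 region thus held most of the reads. The covered percentages refer to genomic spans with introns included, so they do not describe the mRNAs.

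The AU-rich words ATTTA and TATTTAT were counted in the family's clusters and in clusters at large. ATTTA was present in 8.33% of the ZFP36 clusters, 8.79% of those of ZFP36L1 and 2.27% of those of ZFP36L2, beside 9.68% of all 412123 clusters of the 15 libraries. TATTTAT, which contains ATTTA, was present in 6.67%, 6.59% and 2.27%, beside 1.08%. For ZFP36 these came from arsenite, where 16.1% of 31 clusters held ATTTA and 0% of the 29 clusters of other conditions did. For ZFP36L1 the ATTTA share was 7.89% to 10% by condition, on both sides of the share of all clusters. The same positions recur from library to library, so clusters of a gene are not independent, and these shares are descriptions.

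CAT, a word known for IGF2BP proteins, was present in 55% of ZFP36 clusters, 75.3% of ZFP36L1 clusters and 51.1% of ZFP36L2 clusters, beside 72.6% of all clusters. Per 1000 cluster bases there were 11.3, 18.2 and 15.5 CAT matches, beside 23.9 in all clusters, so ZFP36L1 too lay below all clusters by that measure. ACAC, another such word, was present in 10%, 21.4% and 5.68%, beside 21.5%. GGAC, the core of the consensus for N6-methyladenosine, was present in 28.3%, 25.3% and 18.2%, beside 13.6%. Words were read on the strand of the cluster, and a longer cluster has more chances to hold one: the median length was 68.5 bases for ZFP36, 69 for ZFP36L1, 50 for ZFP36L2 and 50 for all clusters. A match is not a binding site.

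The conversion share, the percentage of events in the clusters that were T-to-C conversions, was higher in ZFP36 than in its relatives. It was 12.01%, 11.95% and 12.05% in the arsenite libraries and 11.1% to 12.1% in the 10 libraries with ZFP36 clusters, beside 7.58% to 8.81% over all clusters of the anti-IGF2BP3 libraries. With the arsenite libraries pooled, ZFP36 at 12.02% exceeded 96.4% of the 1357 genes with at least 200 cluster reads, whose median was 8.72%. T made up 22.4% of the bases of ZFP36 clusters and 31.6% of those of all clusters. What part base composition has in the conversion share was not tested. ZFP36L1 ranged from 7.71% to 10.5% and ZFP36L2 from 8.14% to 10.5%.

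Between conditions the conversion share, taken over all events of a gene, overlapped for ZFP36L1 and ZFP36L2. For ZFP36L1 it was 8.88% ± 0.32 with arsenite and 9.42% ± 0.90 with PBS, and for ZFP36L2 9.38% ± 0.96 and 8.95% ± 0.066 (SD, n = 3 each). All 6 comparisons of these genes had exact permutation p-values of 0.4 to 1, with adjusted values of 0.96 to 1. The direction for ZFP36L1 depended on how the share was formed. As a mean of per-cluster shares it was 11.3% to 11.8% with arsenite and 9.23% to 9.91% with PBS, without overlap and in the opposite direction, with an exact permutation p of 0.1, the lowest possible, and 0.35 after adjustment over 7 comparisons. The share over all clusters of a library also lay higher with arsenite, at 8.63% to 8.81% against 7.95% to 8.13% with PBS, and its part in the ZFP36L1 values was not tested. In the same measure ZFP36L1 lay lower at TM 1 h, at 8.31% to 8.93%, than with DMSO, at 8.97% to 10.3%, with the same p-values.

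ZFP36 had a conversion share in 1 PBS library, in 2 DMSO libraries and in 1 TM 1 h library, so only TM 4 h against DMSO was tested. Over all events it was 11.6%, 11.8% and 12.1% in the 3 TM 4 h libraries and 11.5% and 11.3% in the 2 DMSO libraries. Every TM 4 h value lay above both DMSO values, with an exact permutation p of 0.2 and 0.93 after adjustment over 7 comparisons. As a mean of per-cluster shares the difference turned to -0.37 percentage points and the groups overlapped.

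The partners and targets of the family were examined through cluster reads, because the count table gives only Ensembl identifiers and those were not paired with symbols here. Cluster reads were summed over each RefSeq gene span, and 2641 genes were tested between arsenite and PBS, with 8.82% called higher and 3.14% lower and a median log2 change of 0.31. This fit had little power in the simulation, which recovered 1.5% of 200 genes changed 2-fold, so genes that were not called may have changed. The simulation gave all genes 1 shared spread, so its share need not hold for well-covered genes. PPP2CA, described below, was called at a log2 change of 0.99. In the fit of the libraries themselves ZFP36 was called higher with arsenite (edgeR adjusted p = 0.00016). ZFP36L1, at 0.50 (SE 0.23, edgeR adjusted p = 0.22), and ZFP36L2, at -0.16 (SE 0.22, edgeR adjusted p = 0.74), were not. Covered bases given below are not scaled for the depth of the libraries.

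Among mRNAs known as targets of the family, 7 of 14 tested rose with arsenite, 0 fell and 7 did not pass the test, with a median log2 change of 1.55. FOS, a transcription factor of the immediate early response, had 655, 1102 and 1716 cluster reads in the arsenite libraries and 0 in each PBS library. DUSP1, a phosphatase that inactivates p38 and is itself a target, had 100, 106 and 183 reads with arsenite and again 0 in each PBS library. Both were called higher, with edgeR adjusted p-values of 0.00016 and 0.0052, and a fold change against a group at 0 is not given. JUNB, a partner of FOS, had 123, 186 and 350 reads with arsenite against 0, 6 and 0 with PBS (edgeR adjusted p = 0.019). EGR1, an immediate early transcription factor, had 24266 ± 5477 CPM of cluster reads with arsenite and 1463 ± 368 with PBS (SD, n = 3 each), a log2 change of 4.04 (SE 0.28, edgeR adjusted p = 0.00016), and its clusters covered on average 2912 bases with arsenite and 788 with PBS. Of the 36 genes listed, 14 passed the filter on low reads, and for many of them the arsenite libraries were needed to pass it. FOS and DUSP1 reached its threshold in no PBS library, and neither did TIAL1, BTG3 or, in this fit, ZFP36 itself, while JUNB reached it in 1. Genes that pass in this way had to be higher with arsenite, so their calls and the counts of the lists are descriptions. Of the 7 targets that reached the threshold in all 3 PBS libraries, 3 were called higher. The share called among all genes that reached it there is not given here, so this count is a description too.

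The decay machinery that the family recruits showed 1 of 15 genes higher and 0 lower, with a median log2 change of 0.81. CNOT1, the scaffold of CCR4-NOT, had 650 ± 51.5 CPM of cluster reads with arsenite and 279 ± 12.7 with PBS (SD, n = 3 each), a log2 change of 1.18 (SE 0.25, edgeR adjusted p = 0.019), with 987 and 251 bases covered on average. Of the other proteins that bind AU-rich elements, 1 of 12 was higher and 0 lower, and the median was 0.39. That gene was TIAL1, a stress granule protein named here after its values were seen because it was the only call, with 44, 65 and 128 reads against 6, 0 and 0 (edgeR adjusted p = 0.030). Without PBS replicate 2, the shallowest anti-IGF2BP3 library, 4 of 16 decay genes were higher, while 13.6% of all genes were higher. In that fit 2 of 12 AU-rich element binding proteins were higher and 2 lower, and the share of all genes lower is not given here.

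Of the kinases, phosphatases and 14-3-3 proteins that act on the family, 2 of 12 were higher and 1 lower, with a median of -0.04. The higher ones were DUSP1, also counted above, and PPP2CA, the catalytic subunit of protein phosphatase 2A. PPP2CA had 1881 ± 349 CPM of cluster reads with arsenite and 922 ± 80.4 with PBS (SD, n = 3 each), a log2 change of 0.99 (SE 0.19, edgeR adjusted p = 0.015), over 1378 and 472 covered bases. YWHAZ, the zeta form of 14-3-3, fell by 0.84 on the log2 scale (SE 0.17, edgeR adjusted p = 0.019), from 3060 ± 241 to 1735 ± 280 CPM (SD, n = 3 each), over 963 and 1332 covered bases.

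The BTG/TOB proteins, which also bring CCR4-NOT to mRNAs, had 2 of 4 genes higher and 0 lower, with a median of 1.09. BTG3 had 94, 84 and 166 reads with arsenite against 0, 0 and 6 with PBS (edgeR adjusted p = 0.018). TOB1 rose by 1.62 on the log2 scale (SE 0.39, edgeR adjusted p = 0.030), with 60, 133 and 262 reads against 18, 7 and 29. No gene of the 5 lists was called by edgeR at TM 1 h against DMSO, at TM 4 h against DMSO or between the TM time points. There the fit called 0, 10 and 14 of 4623 genes, which is 0%, 0.216% and 0.303%. At an unadjusted p under 0.05 it had 96, 97 and 357 genes, of which 6, 3 and 11 were among the 70 list genes tested, and no other tool was run on cluster reads.

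In the difference between arsenite and TM 4 h, 8 of 16 target mRNAs were higher and 0 lower, where 1.95% of 3848 genes were called higher and 0.468% lower. Against TM 1 h it was 9 of 16 and 0, where 4% were higher and 0.728% lower. The filter of that fit could also be passed through the arsenite libraries alone. Of the other 4 lists, DUSP1, which is also in the target list, was called higher against both, and CNOT1 and BTG3 were called higher against TM 1 h (edgeR adjusted p = 0.016 and 0.025). The comparisons share the arsenite and PBS libraries.

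The genes whose log2 CPM of cluster reads followed each member's log2 CPM most closely over the 15 libraries were taken from 1800 genes with a mean of at least 50 cluster reads. For ZFP36 they included EGR1 (Pearson r = 0.987) and JUN (r = 0.961), both immediate early transcription factors. JUN had a mean of 811 CPM with arsenite and 0 with PBS, DMSO, TM 1 h and TM 4 h. It thus passed the minimum of reads through the arsenite libraries alone, and its r with ZFP36, itself high there, had to be high. For ZFP36L1 they were DUSP5 (r = 0.891), FOSL1 (r = 0.881) and IER2 (r = 0.858), and for ZFP36L2 POLR1F (r = 0.858), ARF6 (r = 0.849) and SFXN1 (r = 0.714). Between the members themselves r was 0.808 for ZFP36 and ZFP36L1, -0.36 for ZFP36 and ZFP36L2 and -0.36 for ZFP36L1 and ZFP36L2 (n = 15 libraries). The libraries fall into the treatment groups and share sets and depths, so these correlations largely follow the group means and are descriptions.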

How the data were processed

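The family members and gene lists were chosen with earlier results of these data known. The authors deposited raw counts per gene, 1 column per library. Per the submitters' processing notes, bcl2fastq 2.20.0.422, UMI-tools 1.1.1, Trimmomatic 0.30, Bowtie 0.12.7 and featureCounts 2.0.1 were used with GRCh38.p13. The program that called clusters is not given in the sources used here, and per the labels' protocols RNase was used at more than 1 concentration. The authors also deposited cluster lists with read, conversion and non-conversion counts per library. For IgG with PBS and IgG with arsenite, the list names are swapped relative to the samples that hold them, and the samples were followed.

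Gene counts entered edgeR 4.0.16 under R 4.3.3 (filterByExpr, TMM factors, quasi-likelihood test, Benjamini-Hochberg over all genes tested, threshold 0.05). The 9 TM and DMSO libraries shared 1 fit, PBS and arsenite another, and all 15 a further one. CPM use the total of genes tested and the TMM factor (0.977 to 1.02). SE is the log2 fold change over the square root of F. Intervals of counts are exact binomial and cover counting error only. Alternatives were DESeq2 1.42.0, limma-voom (limma 3.58.1), other scaling and filters, blocks, library sets and each library left out. Tested on simulated data with 200 genes at 2-fold, recovery was 87.5% (TM 1 h, 8206 genes), 89.5% (TM 4 h, 8330 genes), 92% (TM 4 h against TM 1 h, 8343 genes) and 90.5% (arsenite, 6612 genes), with 0 calls where nothing was changed. Recovery was lower for the differences between stresses, at 60.5% (arsenite minus TM 4 h, 7419 genes) and 69% (arsenite minus TM 1 h, 7432 genes).

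Cluster sequences matched RefSeq promoter sequences at 50625 of 50625 bases, so cluster positions are those of GRCh38. Clusters were assigned to a RefSeq span by at least 1 overlapping base on the same strand. The strand came from the promoter table (15843 genes) or, where it lists none, as for ZFP36L2, from the strand with at least 95% of the cluster reads (1516 genes), a rule chosen after seeing the data. The gene lists had been planned on gene counts and were moved to cluster reads, and 3 of their genes, EXOSC4, MAPKAPK2 and IER3, had no span there. For partners and relatives the named genes were up to 4 per list and direction with the largest log2 change, an adjusted p under 0.05, a mean of at least 50 reads and no overlap, plus the 3 genes most alike each member, of which 1 is not reported here. All 15 pairs of replicates differed by a chi-square test, with a largest p of 8.8e-23. Same-numbered replicates deviated together little or not at all (correlations of -0.12 to 0.084), so they were not treated as pairs. Between DMSO and TM 1 h, 5 of 6 libraries correlated best with their own number, at 0.0027 to 0.084 for the same-numbered pairs. The number of table columns that matched no sample was 0.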

Additional observations from a re-analysis of the deposited data

Results flagged for a closer look

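For 2 members the change with arsenite differed from the change with TM, as tested by the difference itself in the fit of 15 libraries. For ZFP36 the arsenite change was larger than the TM 4 h change by 4.29 and larger than the TM 1 h change by 4.83 on the log2 scale. For ZFP36L1 the same differences were 0.84 and 0.63. All 4 kept their direction and stayed under an adjusted p of 0.05 in each of the 25 alternatives run for each. Beside the ZFP36 values, the IgG library of the arsenite condition held 8 of 9366 counts of ZFP36 and that of PBS 0 of 17503. That the arsenite and TM libraries were made in separate sets was not tested as a part of these differences.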

How the results depend on the processing

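The calls of ZFP36 and ZFP36L1 with arsenite held in all 14 alternatives run for each, with log2 changes of 3.88 to 3.96 and 0.38 to 0.55. Without any 1 library the changes ranged, on the log2 scale, from -1.38 to -0.82 (ZFP36, TM 1 h), -0.062 to 0.13 (ZFP36L2, TM 1 h), -0.48 to -0.26 (ZFP36L1, TM 4 h), -0.40 to -0.21 (ZFP36L2, TM 4 h), 0.43 to 0.99 (ZFP36, TM 4 h against 1 h), -0.43 to -0.25 (ZFP36L2, TM 4 h against 1 h), 0.27 to 0.46 (ZFP36L2, arsenite minus TM 4 h) and -0.052 to 0.12 (ZFP36L2, arsenite minus TM 1 h), and against IgG from -1.30 to 0.16 (ZFP36) and -0.10 to 0.48 (ZFP36L2). Counts of genes called then ranged from 13 to 51 (TM 1 h), 178 to 447 (TM 4 h), 523 to 1022 (TM 4 h against 1 h) and 91 to 107 (IgG). The lowest came without DMSO replicate 3, DMSO replicate 3, TM 1 h replicate 3 and the arsenite IgG library.

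DESeq2 called 6, 152, 491, 1233, 872, 969 and 261 genes where edgeR called 46 (TM 1 h), 426 (TM 4 h), 967 (TM 4 h against 1 h), 2310 (arsenite), 1406 (arsenite minus TM 4 h), 1558 (arsenite minus TM 1 h) and 138 (IgG), and gave ZFP36 at TM 1 h -1.01 and ZFP36L2 at TM 4 h against 1 h -0.32. Limma-voom called 22 genes at TM 1 h and gave -0.33 for ZFP36L2 at TM 4 h and -0.26 for ZFP36L1 at TM 4 h against 1 h, both called. Replicates 1 and 2 alone gave 16, 129 and 488 genes in the TM comparisons, -0.19 for ZFP36L1 at TM 4 h, 1.12 (called), 0.012 and -0.37 for ZFP36, ZFP36L1 and ZFP36L2 at TM 4 h against 1 h, and -0.14 for ZFP36L2 in arsenite minus TM 1 h. Without a filter ZFP36L2 was called at TM 4 h (-0.33) and in arsenite minus TM 4 h (0.44). With a mean count of at least 50, 1380 genes were called with arsenite, and ZFP36 at TM 4 h against 1 h (0.59) and ZFP36L2 in arsenite minus TM 4 h (0.40) were called. With TMM factors the IgG comparison called 703 genes and gave 0.29 for ZFP36 and 1.19 for ZFP36L1. The cause was not tested.

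The replicate block changed no call of the 3 members: with it the change was -0.95 for ZFP36 at TM 1 h (adjusted p 0.0075), 3.88 for ZFP36 and 0.43 for ZFP36L1 with arsenite, and -0.39 for ZFP36L1 at TM 4 h, and 43, 371, 902 and 2111 genes were called in the comparisons of TM 1 h, TM 4 h, TM 4 h against 1 h and arsenite. The library set block gave 42, 394 and 925 genes in the TM comparisons.

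In clusters, scaling to the gene counts of a library in place of its cluster reads turned the arsenite difference of ZFP36L2 to 0.037 from -0.36. The mean of per-cluster conversion shares turned 4 planned differences to -1.01 (ZFP36L1, TM 1 h), -0.61 (ZFP36L1, TM 4 h), 1.83 (ZFP36L1, arsenite) and 0.19 (ZFP36L2, TM 4 h) percentage points, and, for the comparison added after seeing the data, ZFP36 at TM 4 h from 0.45 to -0.37. Without 1 library, log2 differences of cluster reads ranged from -0.69 to 2.56 (ZFP36, TM 4 h), -0.21 to 0.057 (ZFP36L1, TM 1 h) and -0.39 to 0.0018 (ZFP36L2, TM 4 h), and conversion differences from -0.32 to 0.40 (ZFP36L1, TM 1 h), -0.98 to 0.18 (ZFP36L2, TM 1 h), -0.57 to 0.60 (ZFP36L2, TM 4 h) and -0.10 to 0.81 (ZFP36L2, arsenite). Of the target mRNAs, 5 of 9 were higher with strand from the promoter table only, where 9.25% of all genes were higher. Without PBS replicate 2, 9 of 15 were higher and 1 lower, where 13.6% of all genes were higher. The share of all genes lower in that fit is not given here. Both settings were chosen after seeing the data.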
